A study of Caenorhabditis elegans with 10 samples.

Results

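The rows described here are the WormBase gene identifiers from WBGene00006069 to WBGene00006250, a run of 182 numbers that covers the block of *str* chemoreceptor genes of *Caenorhabditis elegans*. The deposited table held a row for 141 of these numbers, out of 18451 rows in all, and every one of the 141 was kept. The rule uses identifiers and no measured value. Neither the deposited table nor the table of gene names used here pairs an identifier with a symbol. No row could therefore be tied to a particular *str* gene, and that each row belongs to the family was not checked.

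The *str* genes encode multi-pass membrane receptors that couple to G proteins, and they form one of the large families of nematode chemoreceptors. ODR-10, the receptor for the odorant diacetyl in the AWA neurons, is a member of the same family. Well-studied members are transcribed in a single pair of head sensory neurons, or in 1 neuron of a pair, as *str-1* is in AWB, *str-2* in AWC and *str-3* in ASI. Transcripts with so narrow a source make up little of the RNA of a whole animal. In the RefSeq annotation of WBcel235, 226 genes carry a *str* symbol, of which 193 are protein-coding and 33 are pseudogenes. Of the 226, 179 lie on chromosome V and 34 on chromosome IV, and 109 have another *str* gene as the next protein-coding gene or pseudogene on at least 1 side. Close copies of this kind can share array probes. How probes were assigned to genes is not given in the sources used here, so signal shared between relatives cannot be separated.

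L2/L3 larvae grown at 25 °C were the source of RNA, either wild type (N2) or carrying *mec-3(e1338)*, and each sample was hybridised to 1 Affymetrix tiling array. For 3 wild-type and 3 *mec-3* samples, mRNA tagging was used to recover messages of the PVD and OLL neurons: PAB-1, a protein that binds poly(A), carries a 3X FLAG tag, is expressed from the *ser-2*prom3B promoter and is pulled down with the messages it holds. In 2 wild-type and 2 *mec-3* samples the RNA was total RNA of whole animals, without the pull-down. PVD is a branched nociceptor of the body wall, OLL a paired sensory neuron near the mouth, and the *mec-3* product is a LIM homeodomain transcription factor needed for touch neuron fate and for PVD dendrite branching. The tagged fraction was not checked against marker genes, and *mec-3* itself was not analysed, because rows carry no symbols. The labels call the replicates of a group biological replicates and do not say more about their source.

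The *str* block lay at the dim end of every array. Values are the authors' RMA values on the log2 scale, so a difference of 1 is a 2-fold difference. Averaged over the 10 arrays, the 141 identifiers ranged from 3.25 to 6.07 with a median of 4.14. Ranked among all rows by that mean, 79 of them fell in the dimmest 10% and 130 in the dimmest 25%, and the brightest reached only the 41.9th percentile. On single arrays, between 120 and 131 of the 141 lay in the dimmest 25% of rows. An identifier of the block exceeded the median row on a single array: wild-type whole-animal replicate 2, where 3 did so.

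Levels of the block differed between the kinds of sample, but ranks differed little. The median of the 141 was 3.78, 3.96 and 4.25 on the wild-type PVD/OLL arrays and 3.96, 3.79 and 3.81 on the *mec-3* PVD/OLL arrays. It was 4.42 and 4.62 in wild-type whole animals and 4.46 and 4.33 in *mec-3* whole animals, above all 6 PVD/OLL arrays. The lower quartile of all rows had the same order, at 4.56 to 5.05 on PVD/OLL arrays and 5.07 to 5.44 on whole-animal arrays. The median of all rows was close to level, at 6.51 to 6.64 and 6.64 to 6.77. Expressed as a percentile among the rows of its own array, the median identifier of the block stood at 8.86 to 10.8 in PVD/OLL and at 10.3 to 10.7 in whole animals. No detection calls were used here, so a value in this range is not known to be above background. A fold given below is therefore a ratio of array values, not known to be one of transcript amounts.

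**Figure D1:**
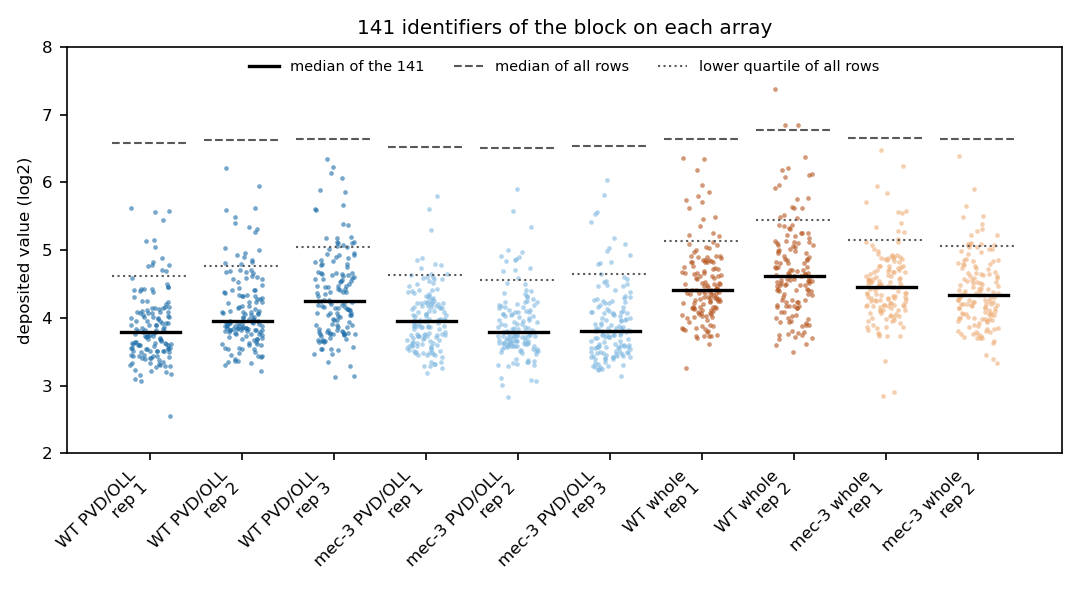
Deposited log2 value of the 141 identifiers of the block (points) on each of the 10 arrays, with their median (solid bar) and the median and lower quartile of all 18451 rows (dashed and dotted bars). The block sits near or under the lower quartile on every array, and both are higher on the 4 whole-animal arrays than on the 6 PVD/OLL arrays.

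Replicates of a group differed over the block about as much as over other dim rows. The median SD between replicates was 0.32 for the block in wild-type PVD/OLL and 0.32 for the other rows of the dimmest 25%. In *mec-3* PVD/OLL the median SDs were 0.17 and 0.20. They were 0.23 and 0.23 in wild-type and 0.19 and 0.20 in *mec-3* whole animals. Wild-type PVD/OLL replicate 3 was the highest of its group for 93 of the 141 identifiers, against 44.5% of all rows, and wild-type whole-animal replicate 2 was the higher of its pair for 98 of them, against 56.7% of all rows. Values without these arrays are given beside the results they moved most. Over the 141 identifiers, arrays of 1 group correlated at 0.65 to 0.77, whereas over all rows they correlated at 0.95 to 0.98. These correlations are across genes, which are not independent replicates, and the narrow range of the block lowers them.

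The brightest identifier was WBGene00006164, at 5.58, 5.59 and 6.35 in wild-type PVD/OLL and 5.61, 5.91 and 5.53 in *mec-3* PVD/OLL. In whole animals it measured 6.36 and 7.38 in wild type and 6.48 and 5.90 in *mec-3*. The genotypes overlapped in both kinds of sample, and both wild-type whole-animal arrays exceeded the 3 wild-type PVD/OLL arrays (log2 difference -1.03, SE 0.35, limma adjusted p = 0.0483 for PVD/OLL minus whole animals). The call of WBGene00006164 was marginal: it was lost after quantile normalization (limma adjusted p = 0.0729), after centring each array on its median (0.0565), with an intensity trend and robust prior (0.0529), in the fit of the 5 wild-type arrays (0.110) and without most of the single arrays, reaching 0.376 without wild-type whole-animal replicate 2. Next in mean level were WBGene00006212, whose group means lay between 5.19 and 6.17, and WBGene00006077, between 5.13 and 5.81. Neither differed past the threshold in any of the comparisons that follow, although WBGene00006212 passed for PVD/OLL minus whole animals in *mec-3* when *mec-3* PVD/OLL replicate 3 was left out (log2 difference -1.28, limma adjusted p = 0.0431). It also passed there with a block for replicate number in the fit (-1.23, 0.0277). Among the rest of the 12 brightest, WBGene00006173 measured 4.78, 4.66 and 4.75 in wild-type and 4.58, 4.40 and 4.81 in *mec-3* PVD/OLL, against 5.75 and 6.12 in wild-type and 5.57 and 5.11 in *mec-3* whole animals. Each PVD/OLL array lay under each whole-animal array, with a log2 difference of -1.21 in wild type (SE 0.23, limma adjusted p = 0.00493) that passed under each alternative. Its difference of -0.74 in *mec-3* (SE 0.23, limma adjusted p = 0.0373) was lost after quantile normalization (0.370), after centring (0.0667), if wild-type PVD/OLL replicate 2 was dropped (0.0504) and if any 1 of the 5 *mec-3* arrays was dropped (0.0541 to 0.252). WBGene00006148 was lower in wild-type PVD/OLL (4.39, 4.67 and 4.83) than in wild-type whole animals (5.26 and 6.85), by -1.42 (SE 0.40, limma adjusted p = 0.0239). Without wild-type whole-animal replicate 2 the difference was only -0.63. The call was also lost after quantile normalization (limma adjusted p = 0.0653) and in the fit of the 5 wild-type arrays (0.0671). It was lost too without wild-type PVD/OLL replicate 1 or 2 (0.0682 and 0.0511). In *mec-3* the difference of WBGene00006148, -0.79, did not pass (limma adjusted p = 0.162) but did in the fit of the 5 *mec-3* arrays (0.0454). WBGene00006182, WBGene00006163, WBGene00006076 and WBGene00006147 ranged over the 10 arrays from 4.16 to 5.96, 4.40 to 6.37, 4.19 to 5.85 and 4.49 to 5.62, and none of these 4 passed in a comparison. The PVD/OLL minus whole-animal difference of WBGene00006182 in *mec-3* (-0.87, limma adjusted p = 0.0577) did pass in the fit of the 5 *mec-3* arrays (0.0466). It also passed with the replicate block (-1.03, 0.0146) and without wild-type PVD/OLL replicate 1 or 3 (0.04995 and 0.0472). Seen across the block, the range between the highest and lowest of the 4 group means had a median of 0.77 and reached 1 or more for 37 of the 141. This range over other rows is not given here, so that count does not set the block apart from them.

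The first comparison asks which transcripts of the tagged PVD/OLL fraction differ between *mec-3* mutants and wild type. In PVD/OLL, 2 identifiers of the block were lower in *mec-3* and 0 higher (limma, adjusted p under 0.05 over all 18451 rows), which is 1.42% of the block where 6.13% of all rows were called, 3.55% lower and 2.58% higher. Calls were rare among dim rows in general: of the 4482 other rows of the dimmest 25%, 22 were called lower and 2 higher, or 0.54%. At an unadjusted p under 0.05 the block had 9 lower and 1 higher, 7.09% of it against 21.1% of all rows and 5.89% of the other dim rows. The median difference over the block was -0.14 (log2), against -0.07 over all rows and -0.15 over the other dim rows. Without wild-type PVD/OLL replicate 3 the block's median was -0.0097, and after quantile normalization it was 0.0097. Groups that did not overlap were seen for 13 identifiers with *mec-3* lower and for 2 with *mec-3* higher, 9.22% and 1.42% of the block, where all rows gave 13.9% and 13.5%. The other dim rows gave 8.63% and 1.58%. The highest difference was 0.43 for WBGene00006080 (SE 0.18, limma adjusted p = 0.223).

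WBGene00006234 measured 5.15, 4.60 and 4.95 in wild-type and 3.96, 3.63 and 3.78 in *mec-3* PVD/OLL. The *mec-3* values stood at percentiles 10.9, 6.0 and 8.3 of all rows of their arrays. Every *mec-3* array was under every wild-type array, and the mean fell 2.16-fold, from 4.90 ± 0.28 to 3.79 ± 0.17 (SD, n = 3 each; log2 difference -1.11, SE 0.21, limma adjusted p = 0.0193). Whole animals showed the same order, at 4.86 and 4.62 in wild type and 3.93 and 3.83 in *mec-3*, a difference of -0.86 that did not pass there (limma adjusted p = 0.130) but did in the fit of all 10 arrays (0.0443). WBGene00006227 measured 4.82, 4.92 and 5.12 in wild-type and 4.22, 4.03 and 4.08 in *mec-3* PVD/OLL. The PVD/OLL groups were again apart, with a fall of 1.80-fold from 4.95 ± 0.15 to 4.11 ± 0.10 (SD, n = 3 each; log2 difference -0.85, SE 0.18, limma adjusted p = 0.0291). Its whole-animal values were 4.91 and 5.77 in wild type and 4.30 and 4.15 in *mec-3*, a difference of -1.12 that did not pass (limma adjusted p = 0.137) but did in the fit of all 10 arrays (0.0251) and without wild-type whole-animal replicate 1 (difference -1.55, 0.0401). Both calls rested on all 3 *mec-3* arrays: without replicates 1, 2 and 3 the limma adjusted p was 0.0532, 0.0903 and 0.0808 for WBGene00006234 and 0.0859, 0.125 and 0.121 for WBGene00006227. The call of WBGene00006227 was also lost without wild-type replicate 2 or 3, at 0.0757 and 0.0522, and in the fit of all 10 arrays, at 0.0575. The differences themselves stayed between -1.26 and -0.99 for WBGene00006234 and between -0.91 and -0.76 for WBGene00006227 with each array left out.

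The widest measured difference of the block in PVD/OLL was that of WBGene00006097, which did not pass. It stood at 5.63, 4.70 and 5.59 in wild type and 4.60, 3.84 and 3.86 in *mec-3*, a difference of -1.21 (SE 0.32, limma adjusted p = 0.0655). In whole animals its values were 6.34 and 6.85 against 5.71 and 5.29, a difference of -1.10 (limma adjusted p = 0.108). The genotypes did not overlap within either kind of sample, and its group means had the widest range of the block, 2.50. WBGene00006144, the sixth widest at 1.73, measured 4.02, 4.95 and 4.38 in wild-type and 3.61, 3.63 and 3.59 in *mec-3* PVD/OLL, a difference of -0.84 (SE 0.25, limma adjusted p = 0.0947) that passed without wild-type replicate 1 (-1.05, 0.0456). The PVD/OLL difference of WBGene00006097 passed in the fit of all 10 arrays (limma adjusted p = 0.0438) and without wild-type replicate 2 (0.0355).

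Whole animals ask the same question of all tissues together, where fewer cells of a type and less RNA per cell cannot be told apart. Of the block, 2 identifiers were lower and 0 higher in *mec-3* (limma, adjusted p under 0.05), again 1.42%, where 5.54% of all rows, 2.88% lower and 2.67% higher, and 0.31% of the other dim rows were called. At an unadjusted p under 0.05 there were 8 lower and 0 higher, 5.67% of the block against 21.5% of all rows and 4.77% of the other dim rows. The block's median difference was -0.10, against -0.03 over all rows and -0.13 over the other dim rows. With 2 arrays a genotype, groups did not overlap for 36 identifiers with *mec-3* lower and 11 with *mec-3* higher, or 25.5% and 7.80%, where all rows gave 25.4% and 25.2%. The other dim rows gave 25.0% and 8.63%. The highest difference was 0.59 for WBGene00006241 (SE 0.28, limma adjusted p = 0.297).

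WBGene00006218 measured 4.74 and 5.49 in wild-type and 2.84 and 3.33 in *mec-3* whole animals, a fall from 5.11 ± 0.53 to 3.09 ± 0.35 (SD, n = 2 each; log2 difference -2.03, SE 0.36, limma adjusted p = 0.0327). On the *mec-3* whole-animal arrays it ranked 1 and 50 from the bottom of all 18451 rows, where no background level was available, so no fold is given. In PVD/OLL the same identifier split within both genotypes, at 4.24, 6.22 and 6.15 in wild type and 3.93, 4.06 and 6.04 in *mec-3*. Those groups overlapped, their SDs of 1.12 and 1.18 were the widest of the block in either PVD/OLL group, and the difference of -0.86 did not pass (limma adjusted p = 0.532). WBGene00006190 fell 2.71-fold in whole animals, from 5.62 and 6.08 in wild type to 4.30 and 4.52 in *mec-3* (5.85 ± 0.32 to 4.41 ± 0.15, SD, n = 2 each; log2 difference -1.44, SE 0.29, limma adjusted p = 0.0472). On the *mec-3* whole-animal arrays WBGene00006190 stood at percentiles 7.5 and 14.4 of all rows. Its PVD/OLL values were 4.45, 4.80 and 3.64 in wild type and 3.63, 3.54 and 3.41 in *mec-3*. Every *mec-3* value was the lower there too, but the nearest pair differed by little and the difference of -0.77 did not pass (limma adjusted p = 0.177). Without wild-type PVD/OLL replicate 3, which held the value of 3.64, it was -1.10 and passed (0.0238). Both whole-animal calls were lost after quantile normalization (limma adjusted p = 0.0536 for WBGene00006218 and 0.0611 for WBGene00006190), and that of WBGene00006218 in the fit of all 10 arrays (0.107). They were also lost without wild-type replicate 2 (0.0675 and 0.103), without *mec-3* replicate 1 (0.191 and 0.255) and without *mec-3* replicate 2 (0.152 and 0.241), where the lone array of a group was taken to vary like the other group.

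**Figure D2:**
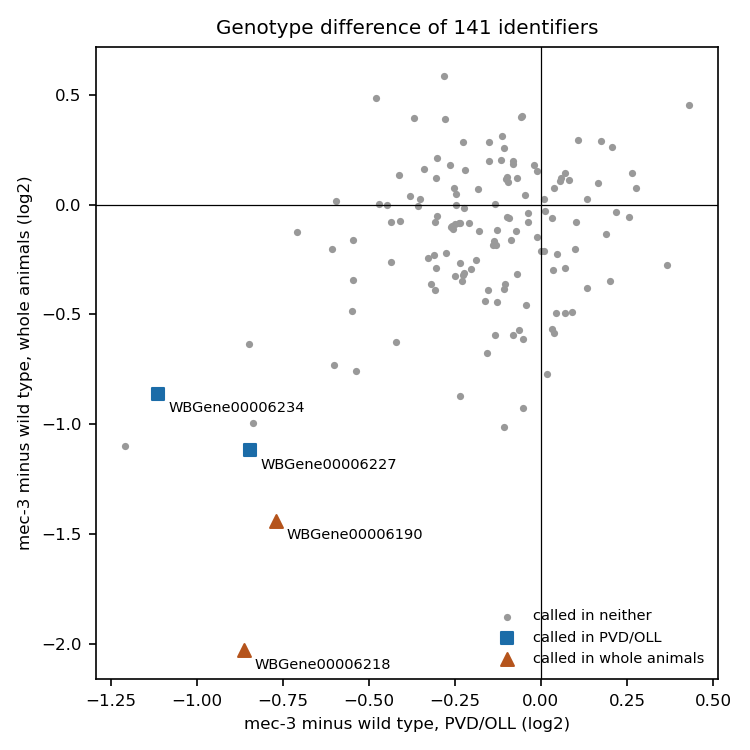
Log2 difference of *mec-3* minus wild type in PVD/OLL (horizontal axis, 3 arrays a genotype) against that in whole animals (vertical axis, 2 arrays a genotype) for the 141 identifiers, with the 2 called in PVD/OLL as squares and the 2 called in whole animals as triangles. All 4 called identifiers lie under 0 on both axes, and most of the block lies within 0.5 of 0 on each.

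The 2 identifiers called in PVD/OLL and the 2 called in whole animals were different ones in these fits, but in the fit of all 10 arrays WBGene00006234 passed in both kinds of sample. The genotype differences of the 2 kinds of sample share no arrays, and they had the same sign for 86 of the 141 identifiers (61.0%), against 68.6% of all rows. In 4 identifiers all 5 *mec-3* arrays lay under all 5 wild-type arrays, which is 2.84% of the block where all rows gave 3.86% and the other dim rows 0.62%. These were WBGene00006234 and WBGene00006227, and, named here after their values were seen, WBGene00006086 and WBGene00006111. WBGene00006086 measured 4.58 to 5.10 on wild-type and 3.77 to 4.25 on *mec-3* arrays, and WBGene00006111 measured 4.64 to 5.49 and 4.12 to 4.60. In 0 identifiers did all 5 *mec-3* arrays lie above all 5 wild-type arrays, where all rows gave 4.96% and the other dim rows 0.067%.

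A difference of differences, fitted over the 10 arrays, asked if the genotype difference itself was unequal in the 2 kinds of sample. It passed for 0 identifiers of the block (limma, adjusted p under 0.05), where 0.00542% of all rows did. At an unadjusted p under 0.05 there were 3, or 2.13% of the block against 9.80% of all rows and 3.68% of the other dim rows. The lowest limma adjusted p in the block was 0.415. The largest value was that of WBGene00006218, 1.17 (SE 0.97, limma adjusted p = 0.779), and the smallest that of WBGene00006212, -0.96 (SE 0.53, limma adjusted p = 0.613). The calls in 1 kind of sample and not in the other were thus not shown to differ between the kinds.

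**Figure D3:**
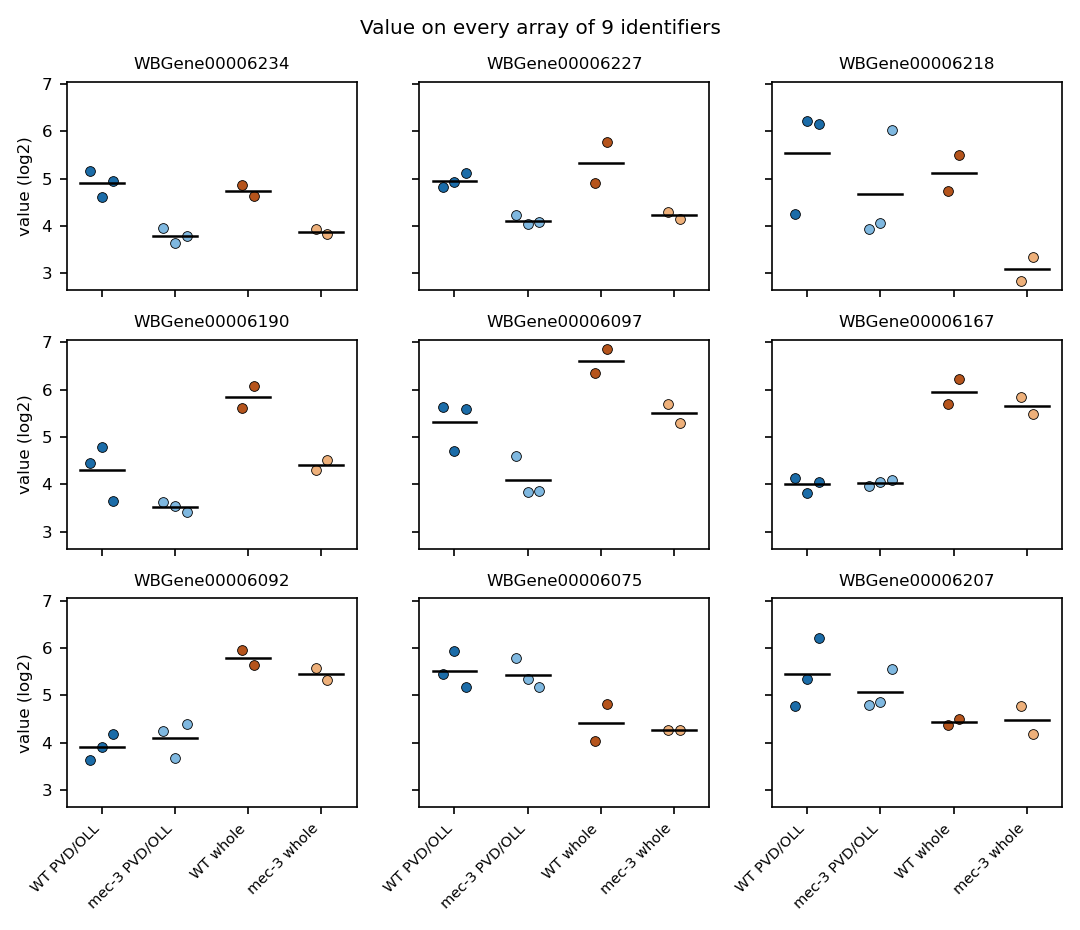
Log2 value on every array (points) and group mean (bars) of 9 identifiers, by genotype and kind of sample, with 3 arrays in each PVD/OLL group and 2 in each whole-animal group. WBGene00006234 and WBGene00006227 are lower on all 5 *mec-3* arrays, WBGene00006167 and WBGene00006092 are lower on all 6 PVD/OLL arrays, and WBGene00006075 and WBGene00006207 are higher on all 6.

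PVD/OLL was then set against whole animals, to ask which transcripts the tagged fraction holds more or less of. In wild type, 36 identifiers of the block were lower and 1 was higher in PVD/OLL (limma over the 10 arrays, adjusted p under 0.05), 25.5% and 0.71% of the block, where 18.9% and 9.61% of all rows were called. Either way, that is 26.2% of the block and 28.6% of all rows. In *mec-3*, 32 were lower and 1 higher, 22.7% and 0.71%, where all rows gave 19.1% and 7.59%, or 23.4% against 26.7% either way. Fitted on the 5 arrays of its own genotype, wild type had 13 lower and 0 higher, 9.22% and 0% of the block. All rows gave 9.20% and 4.08% there. In *mec-3* such a fit had 60 lower and 1 higher, 42.6% and 0.71%, where all rows gave 26.7% and 10.5%. The order of the genotypes thus depended on the fit. Groups did not overlap for 63 lower and 5 higher identifiers in wild type, 44.7% and 3.55% of the block against 32.9% and 18.6% of all rows. For *mec-3* these were 90 and 5, or 63.8% and 3.55% against 43.6% and 19.9%. The other dim rows gave 47.7% lower and 2.30% higher in wild type, and 62.1% and 2.74% in *mec-3*. The pull-down was applied to the PVD/OLL samples only, and which arrays were normalized together is not given in the sources used here, so cell type, preparation and processing cannot be told apart. The called falls ran from -0.66 to -1.96 (log2) in wild type and from -0.70 to -1.63 for *mec-3*. Both genotypes, which share no arrays here but share 1 estimate of the spread, called 22 identifiers lower, which is 61.1% of the wild-type and 68.8% of the *mec-3* calls, where the corresponding shares over all rows were 56.8% and 56.4%. In 38 identifiers all 6 PVD/OLL arrays lay under all 4 whole-animal arrays, 27.0% of the block against 16.8% of all rows and 29.7% of the other dim rows.

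Other dim rows had falls of a similar size. The block had a median difference of -0.46 for wild type and -0.54 for *mec-3*, against -0.21 and -0.28 over all rows and -0.50 and -0.52 over the other rows of the dimmest 25%. Within the dimmest 25%, 24.6% of the 130 identifiers of the block and 25.5% of the 4482 other rows were called lower in wild type, and 23.1% and 23.7% in *mec-3*. Taking the dimmest 10% alone, the 79 identifiers had a median of -0.46 and the 1766 other rows -0.45 in wild type, with 22.8% and 21.1% called lower. The corresponding values in *mec-3* were -0.57 and -0.49, with 24.1% and 20.7% called lower.

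The calls also depended on the scaling. After quantile normalization of the 10 arrays, 9 identifiers were lower and 5 higher in wild type, 6 were lower and 4 higher for *mec-3*, and all 9 and all 6 were among those called lower on the deposited values. In wild type these are 6.38% lower and 3.55% higher, against 12.01% and 13.2% of all rows, and in *mec-3* 4.26% and 2.84%, against 9.22% and 10.3%. Of the rows outside the block in the dimmest 10%, the next 10% and the 10% after it, 4.08%, 7.71% and 11.8% were lower and 1.98%, 3.66% and 7.93% higher in wild type. The median difference of the block became -0.02 and -0.07, and that of all rows 0.03 and 0.02. Centring each array on its median left 31 lower and 1 higher for wild type, and 25 lower and 1 higher for *mec-3*. Of the rows outside the block in the same steps of 10%, 15.86%, 24.35% and 23.96% were then lower in wild type. In *mec-3* these were 12.63%, 18.47% and 19.64%. Of the block, 15 of 79, 11 of 42 and 5 of 17 identifiers in these steps were lower in wild type. In *mec-3* these were 13, 9 and 3. The share of all rows called after centring is not given here. Single arrays counted as well. The share of all rows called with an array left out is not given here, so the counts that follow do not set the block apart from other rows. In place of 37 calls in wild type there were 24 without wild-type PVD/OLL replicate 2, 49 without replicate 3 and 15 when wild-type whole-animal replicate 2 was dropped. In *mec-3*, in place of 33, 19, 15 and 18 were left when PVD/OLL replicate 1, 2 or 3 of that genotype was dropped, and 10 and 9 when its whole-animal replicate 1 or 2 was dropped.

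**Figure D4:**
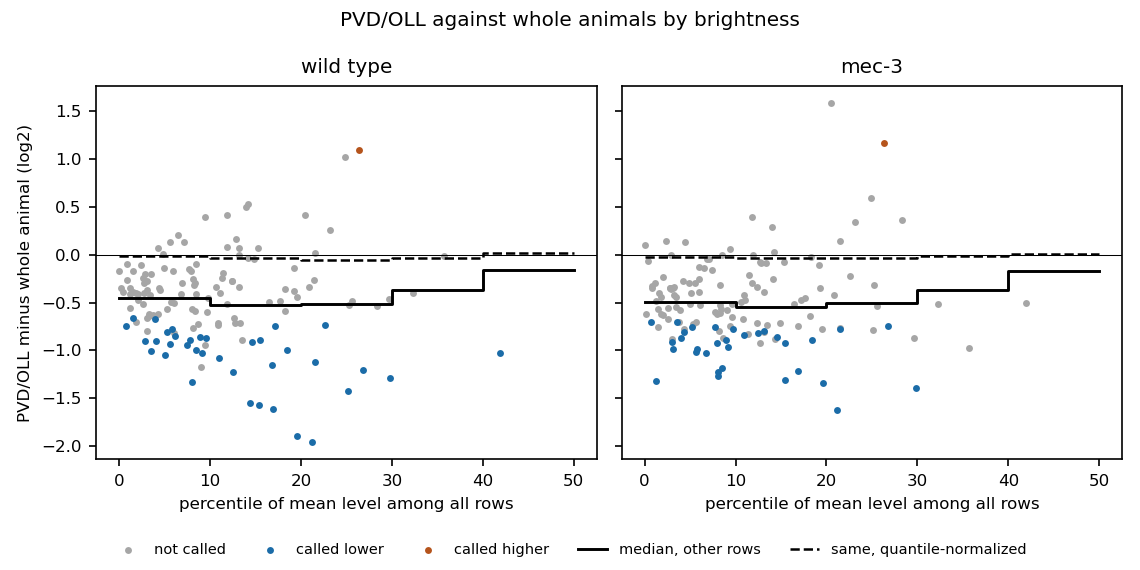
Log2 difference of PVD/OLL minus whole animals for the 141 identifiers (points) against the percentile of their mean level among all rows, in wild type (left) and *mec-3* (right), with the median of the rows outside the block in each step of 10% in brightness on the deposited (solid) and quantile-normalized (dashed) values. The deposited medians of the dimmest 3 steps lie near -0.5 and the quantile-normalized ones near 0, and the points scatter around the solid line.

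WBGene00006167 had the largest fall of the block in both genotypes. It measured 4.14, 3.82 and 4.04 in wild-type PVD/OLL and 3.97, 4.06 and 4.08 in *mec-3* PVD/OLL, and in whole animals 5.71 and 6.22 in wild type and 5.84 and 5.49 in *mec-3*. The 6 PVD/OLL arrays, where it stood at percentiles 6.1 to 17.2 of all rows, were close together and far under the 4 whole-animal arrays. The difference was 3.89-fold in wild type (log2 -1.96, SE 0.23, limma adjusted p = 0.000655). In *mec-3* it was 3.09-fold (log2 -1.63, SE 0.23, limma adjusted p = 0.00155). Both passed in every alternative that kept the row. WBGene00006092 measured 3.63, 3.90 and 4.19 in wild-type and 4.25, 3.67 and 4.41 in *mec-3* PVD/OLL, against 5.97 and 5.63 in wild-type and 5.58 and 5.32 in *mec-3* whole animals. On the PVD/OLL arrays it stood at percentiles 6.9 to 20.9 of all rows. It too was lower on all 6 PVD/OLL arrays, by 3.72-fold in wild type (log2 -1.89, SE 0.27, limma adjusted p = 0.00144). The *mec-3* fall was 2.54-fold (log2 -1.34, SE 0.27, limma adjusted p = 0.00717), and that call was lost when whole-animal replicate 1 of *mec-3* was left out (0.0583). WBGene00006097, whose values are given above, was lower in PVD/OLL by 2.45-fold among wild-type and by 2.64-fold among *mec-3* samples (adjusted p from limma of 0.0201 and 0.0157). Its wild-type call was lost without wild-type PVD/OLL replicate 2 or whole-animal replicate 2 (limma adjusted p = 0.0556 and 0.142), and its *mec-3* call without *mec-3* PVD/OLL replicate 2 or 3 (0.0503 and 0.053) or either *mec-3* whole-animal array (0.112 and 0.0506). The first was also lost in the fit of the 5 wild-type arrays (0.051) and the second after quantile normalization (0.0642). WBGene00006190 too was lower in PVD/OLL in wild type (limma adjusted p = 0.00607). Of 15 alternatives 1 lost that call, without wild-type whole-animal replicate 2 (difference -1.33). Its *mec-3* difference of -0.88 did not pass (limma adjusted p = 0.0586). It did in the fit of the 5 *mec-3* arrays (0.0115) and without wild-type PVD/OLL replicate 2 or 3 (0.0437 and 0.0166).

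On the deposited values, 1 identifier of the block was called higher in PVD/OLL, and it was the same one in both genotypes. WBGene00006075 measured 5.45, 5.95 and 5.18 in wild-type and 5.80, 5.35 and 5.17 in *mec-3* PVD/OLL, against 4.04 and 4.82 in wild-type and 4.27 and 4.26 in *mec-3* whole animals. On the whole-animal arrays it stood at percentiles 4.2 to 13.7 of all rows. All 6 PVD/OLL arrays lay above all 4 whole-animal arrays, opposite to the shift of the dim rows. The rise was 2.14-fold in wild type (5.53 ± 0.39, n = 3, over 4.43 ± 0.55, n = 2, SD; log2 1.10, SE 0.31, limma adjusted p = 0.0239). In *mec-3* it was 2.26-fold (5.44 ± 0.32, n = 3, over 4.27 ± 0.01, n = 2, SD; log2 1.17, SE 0.31, limma adjusted p = 0.0198). The genotypes did not differ past the threshold in PVD/OLL (difference -0.09, SE 0.26, limma adjusted p = 0.887). The identifier stayed called higher in both genotypes after quantile normalization and after centring. The wild-type call was lost without wild-type PVD/OLL replicate 2 (limma adjusted p = 0.0713) or whole-animal replicate 1 (0.153, difference 0.71), and in the fit of the 5 wild-type arrays (0.0716). The *mec-3* call was lost when PVD/OLL replicate 1 (0.0662) or whole-animal replicate 1 or 2 (0.0924 and 0.0921) of that genotype was dropped.

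WBGene00006207 was the other identifier with all 6 PVD/OLL arrays above all 4 whole-animal arrays, a pattern held by 1.42% of the block, 7.79% of all rows and 0.33% of the other dim rows. It measured 4.78, 5.35 and 6.22 in wild-type and 4.80, 4.86 and 5.56 in *mec-3* PVD/OLL, and 4.37 and 4.50 in wild-type and 4.77 and 4.17 in *mec-3* whole animals. The gap was narrow, since the lowest PVD/OLL value and the highest whole-animal value nearly met. Its differences of 1.02 in wild type and 0.60 in *mec-3* did not pass (limma adjusted p = 0.0738 and 0.274). They passed after quantile normalization (limma adjusted p = 0.0108 and 0.0434), and the wild-type difference also without wild-type PVD/OLL replicate 1 (0.0322). Without wild-type PVD/OLL replicate 3 the wild-type difference was 0.63 (limma adjusted p = 0.167). The widest *mec-3* rise, 1.59 for WBGene00006218, did not pass (limma adjusted p = 0.106) but did after quantile normalization (2.02, 0.0459); its 3 *mec-3* PVD/OLL values, given above, spread from 3.93 to 6.04.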

How the data were processed

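RNA of 10 samples was measured on Affymetrix tiling arrays after NuGEN amplification, per the labels' protocols. The authors deposited 1 log2 value per gene identifier and array, made with RMA (background correction, normalization, probe summary), per the submitters' processing notes, with no version. The log2 scale was read from the values. The sources used here do not give gene models, build, probe assignment or filters. The table holds 0 missing values and 0 columns of other samples. The number of arrays limits the precision.

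Groups come from the sample titles. Differences were fitted to all 18451 rows without a filter, in R 4.3.3 with the lmFit and eBayes functions of limma 3.58.1, two-sided, with Benjamini-Hochberg adjustment over all rows. The *mec-3* comparisons used the 6 PVD/OLL or the 4 whole-animal arrays, the others all 10. A row is called at an adjusted p under 0.05. Dim rows are ranked by the mean over all 10 arrays. The fit was tested on simulated data. Replicates of a group were never identical, at correlations of up to 0.984.

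The *str* block and the comparisons were chosen with earlier results of these data known. The rule for named identifiers took the 12 brightest, called members without overlap between groups (10 in each direction), the 6 with the widest range of group means and the extremes of each comparison. Because the name table (46926 rows, WBcel235) holds 0 of the identifiers, the text gives, beside the 12 brightest and the 6 widest-ranging, at most 2 called in each direction per comparison, and planned lists of other chemoreceptors, signalling genes and cell markers were not used. Alternatives were quantile normalization, centring, filters on dim rows, an intensity trend with a robust prior, a replicate block, other arrays in the fit, and each array left out.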

Additional observations from a re-analysis of the deposited data

How the results depend on the processing

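Leaving out the dimmest 50% of rows removed all 141 identifiers and gave no value. Leaving out the dimmest 25% kept 11, of which 0 were called in either *mec-3* comparison, 5 in the wild-type and 3 in the *mec-3* enrichment, and the whole-animal *mec-3* median became -0.22. Fewer rows of the block were then tested. The share of the other kept rows called is not given here, so these counts among 11 are not set against them. Quantile normalization gave 0 calls for *mec-3* in whole animals, where 3.89% of all rows were called. For the wild-type enrichment it gave 14 calls and a median of -0.0232, where 25.2% of all rows were called. For the *mec-3* enrichment it gave 10 calls and a median of -0.0704, where 19.5% of all rows were called. Fits of the 5 arrays of 1 genotype gave 13 enrichment calls in wild type and 61 in *mec-3*, which had the smaller spread. Either way, 13.3% and 37.2% of all rows were called in these fits. With each array left out, calls ranged from 0 to 3 for *mec-3* in PVD/OLL, 0 to 3 in whole animals, 15 to 49 and 9 to 47 for the wild-type and *mec-3* enrichments, and 0 for the difference of differences. Their medians ranged from -0.26 to -0.01, -0.20 to -0.04, -0.63 to -0.33, -0.62 to -0.47 and -0.15 to 0.08. The cause of these changes was not tested. Shares of all rows called are not given for the fits with an array left out or, below, with the replicate block. Centring and the trend with a robust prior moved no count by over 1.5 times. No named identifier reversed a called direction. Replicate numbers showed no clear pairing of the genotypes within a kind of sample: deviations of same-numbered PVD/OLL arrays correlated at -0.06, 0.03 and 0.04, and those of whole animals at 0.05. The whole-animal check is weak, because the deviations of 2 arrays in a group mirror each other. PVD/OLL arrays were not compared with whole-animal arrays of the same number. With the replicate block the calls were 2, 2, 35, 38 and 0 in place of 2, 2, 37, 33 and 0; in PVD/OLL, WBGene00006227 then missed the threshold (limma adjusted p = 0.0747) and WBGene00006097 passed it (0.0418).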
